A study of Mus musculus with 2 samples.

Results

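The hypocretin system was followed through 4 genes taken by symbol from the 28692 genes counted: Hcrt and Qrfp, which encode peptide precursors, and Hcrtr1 and Hcrtr2, which encode the hypocretin receptors. All 4 were counted in both libraries. The cells came from the lateral hypothalamic area of C57BL/6 mice at postnatal day 30 and were captured by droplet single-cell RNA sequencing, in which a unique molecular identifier (UMI) stands for 1 captured transcript. One library pooled 3 animals labelled male and the other pooled 2 animals labelled female. All animals were littermates, none was labelled with a transgene or a treatment, and no label tied a cell to an animal. Each sex label therefore had 1 library, so the labels were not compared by a test, and every test set cell groups against each other within the same 2 libraries.

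The libraries held 3439 and 3793 barcodes with medians of 5718 and 6289 UMIs. Throughout, the first value of a pair belongs to the library labelled male and the second to the library labelled female. Xist gave 20641 and 30 UMIs and Y-linked genes 0 and 7618, the reverse of what each label calls for. The libraries shared 18 barcodes, of which 17 were among kept cells and 0 belonged to a hypocretin neuron. After filtering, 3190 and 3525 cells remained, and 2045 and 2271 of them lay in clusters named neuron-like from their marker genes.

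Hypocretins, also called orexins, are excitatory peptides made by a small set of neurons of the lateral and posterior hypothalamus that project through most of the brain. They promote wakefulness, arousal and feeding, and loss of these neurons causes narcolepsy. One precursor, the product of Hcrt, is cut into both peptides. The receptor encoded by Hcrtr1 prefers orexin-A, the receptor encoded by Hcrtr2 binds both peptides, and both act largely through Gq proteins and phospholipase C. Qrfp encodes the precursor of an RFamide peptide that raises feeding and acts at another receptor, encoded by Qrfpr.

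All 4 genes lie on the minus strand of GRCm38 (GENCODE M21). Hcrt (ENSMUSG00000045471) spans chr11:100761069-100762931, a gene of 1863 bases, and Qrfp (ENSMUSG00000043102) spans chr2:31806166-31810580. Hcrtr1 (ENSMUSG00000028778) spans chr4:130130217-130139359 with up to 9 exons. Hcrtr2 (ENSMUSG00000032360) spans chr9:76225880-76323856 with up to 8 exons and 97977 bases. A gene on the other strand, Gm27234, lies within Hcrtr2 at chr9:76319577-76320846. Whether counting used strand is not given in the sources used here, so whether reads from that stretch were kept apart between the genes was not checked.

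The coding bases at the end of each peptide show how Hcrt serves as a precursor of a pair of related peptides. In capitals follow the codons for a glycine and a pair of basic residues, the signal at which a precursor is cut and the peptide end amidated. Both were read from the transcript Hcrt-201, which has 130 codons.
First peptide end, glycine at codon 66: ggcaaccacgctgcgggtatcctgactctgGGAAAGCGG
Second peptide end, glycine at codon 97: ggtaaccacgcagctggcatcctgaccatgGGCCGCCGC
The ends shared 24 of the 30 bases before the capitals. The deposited counts do not separate the peptides, since both come from 1 transcript, and an Hcrt UMI stands for the precursor as a whole.

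The promoter of Hcrt is shown because the gene's transcript filled a larger share of single cells than that of any other member. It is the 250 bases before the start at chr11:100762932-100763181, minus strand, from RefSeq on GRCm38.p6, with a TATAAA in capitals that begins 33 bases before the start.
Hcrt promoter: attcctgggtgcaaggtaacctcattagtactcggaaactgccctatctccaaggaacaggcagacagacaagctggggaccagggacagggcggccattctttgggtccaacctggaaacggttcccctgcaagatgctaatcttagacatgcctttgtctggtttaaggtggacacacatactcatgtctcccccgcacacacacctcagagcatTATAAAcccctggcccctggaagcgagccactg
TATAAA, searched on both strands of 32817 promoter windows, was found in 12.4% of them. Of the members' promoters it was found in that of Hcrt alone. TAAT, the core letters bound by many homeodomain proteins, Lhx9 among them, was also searched on both strands and was found in 54.9% of windows. In the Hcrt window it stood 227, 111 and 35 bases before the start, and the last of these overlapped TATAAA. The matches at 227 and 35 lie on the other strand and read ATTA in the letters shown. These matches describe letters and show no binding.

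Hcrt was concentrated in a small group of neurons. Neurons with 0.3% or more of their UMIs from Hcrt are called Hcrt-high here, and there were 83 in each library. They made up 4.06% of neuron-like cells (exact 95% interval 3.25 to 5.01) in the library labelled male and 3.65% (2.92 to 4.51) in the library labelled female. Intervals on counts and shares cover counting error only. Hcrt-high neurons held 90.7% and 92.7% of all Hcrt UMIs among kept cells. Since the group was defined by Hcrt, these values describe it and are no test.

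Within the Hcrt-high neurons the amount per cell varied widely. A cell held from 8 to 2463 Hcrt UMIs with a median of 221 in the library labelled male, and from 15 to 2052 with a median of 320 in the library labelled female. As a share of the cell, the median was 1.62% and 3.5%, and the highest cell reached 21.2% and 24.8%. Cells of the same group thus differed many-fold in Hcrt. The median depth of Hcrt-high neurons was 16101 and 18593 UMIs, against 7652 and 8024 in the other neurons, but the cells above 10% Hcrt (6 and 7 cells) were shallow, with medians of 3944 and 2924 UMIs.

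Few neurons lay near the limit. Most neurons held no Hcrt or a trace: 746 and 657 had 0 UMIs, 925 and 1184 lay above 0 and below 0.03%, and 275 and 339 lay between 0.03% and 0.1%. The next stretch, from 0.1% to 0.3%, held 16 and 8 neurons. Above the limit lay 22 and 12 neurons between 0.3% and 1%, 29 and 22 between 1% and 2%, and 15 and 22 between 5% and 10%. These steps differ in width, so their counts are not compared as densities.

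**Figure D1:**
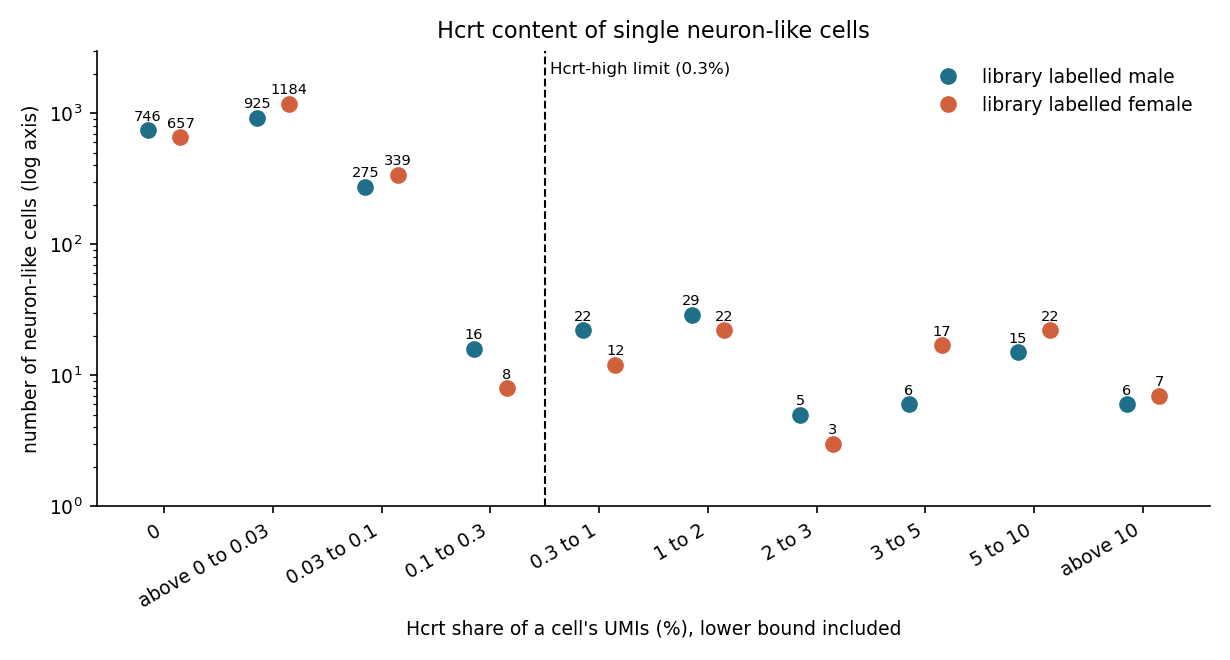
Number of neuron-like cells (log axis) against the share of a cell's UMIs that came from Hcrt, in steps of percent; points are the libraries labelled male and female, numbers are cells, and the dashed line is the 0.3% limit. The step just below the limit holds 16 and 8 cells, against 275 and 339 in the step before it, and the steps differ in width.

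The closest neurons below the limit held 0.196%, 0.230% and 0.233% Hcrt in the library labelled male and 0.202%, 0.258% and 0.260% in the library labelled female. The closest above held 0.312%, 0.386% and 0.507%, and 0.315%, 0.436% and 0.457%. Between 0.1% and 0.5% there were 18 and 11 neurons. A limit of 0.1% gave 96 and 90 Hcrt-high neurons and a limit of 1% gave 61 and 71, against 83 in each library at 0.3%. Clustering, which did not use the 4 genes, put 80 and 82 of the 83 Hcrt-high neurons into 1 cluster. No neuron was above 0.3% for both Hcrt and Pmch, the gene for melanin-concentrating hormone, the other peptide that marks lateral hypothalamic neurons.

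Most Hcrt-high neurons carried the glutamate transporter. Slc17a6, which encodes the vesicular transporter VGLUT2, was found without Slc32a1 in 63 and 62 of the 83 cells. Slc32a1, which encodes the transporter for GABA and glycine, was found without Slc17a6 in 1 and 2 cells, both were found in 5 and 8, and neither in 14 and 11.

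Across the other neuron groups Hcrt was at the level of cells that should lack it. Levels are given in CPM, the UMIs of a gene in a group scaled to a common total of UMIs. Hcrt-high neurons had 29223 and 37207 CPM. All other neurons had 140 and 159 CPM, with at least 1 UMI in 62.0% and 70.0% of cells and a median of 1 UMI. Non-neuronal cells had 251 and 170 CPM, with a UMI in 41.7% and 49% of cells at median depths of 3747 and 4186. The non-neuronal level fell to 170 and 164 CPM without the 8 and 1 cells at or above 0.3%. Of these, 1 mature oligodendrocyte-like cell of the library labelled male held 188 Hcrt UMIs, 4.83% of its total.

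Traces of Hcrt were found in every broad group. The groups of other neurons ranged from 103 to 152 CPM and from 153 to 172 CPM, and the non-neuronal classes from 171 to 456 and from 122 to 330. Inhibitory neurons, defined as cells with Slc32a1 and no Slc17a6, had 137 and 153 CPM, and excitatory neurons, the reverse, had 152 and 167. That difference did not pass the test (log2 fold change -0.14, SE 0.05, adjusted p = 0.0628, edgeR's quasi-likelihood test). Pmch-high neurons had 131 and 172 CPM.

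Finer groups did not all share that level. One excitatory subcluster, the one that held most Qrfp cells, stood at 582 and 683 CPM of Hcrt (exact 95% intervals 462 to 723 and 543 to 848), against 92.1 to 198 and 104 to 231 CPM in the other 48 subclusters with 10 or more cells in each library. Its 81 and 82 Hcrt UMIs came from 10 and 9 of 14 and 12 cells, with 35 and 38 in the highest cell, and 2 and 2 of the cells lay at or above 0.1% Hcrt. By the clustering of all cells, 11 and 11 excitatory neurons below the limit sat in the cluster of the Hcrt-high neurons and held 79 and 82 Hcrt UMIs. Hcrt was also tested in 16 neuron gates, cells set apart by UMIs of named marker genes and compared with the rest of their transporter group, and was called lower in 1 and higher in 0, where 6.57% of all gene tests pooled over the gates were called in either direction. In that gate, of Synpr and Nos1, it stood at 84.1 and 103 CPM against 155 and 170 in other excitatory neurons (log2 fold change -0.80, SE 0.19, adjusted p = 0.00208, edgeR). The other excitatory neurons had 142 and 159 CPM without the subcluster rich in Hcrt. DESeq2 (adjusted p = 0.778) and cells thinned to 3000 UMIs (-0.51, adjusted p = 0.647) did not call it, and it turned sign with the Hcrt limit at 1% (0.19, adjusted p = 0.469).

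**Figure D2:**
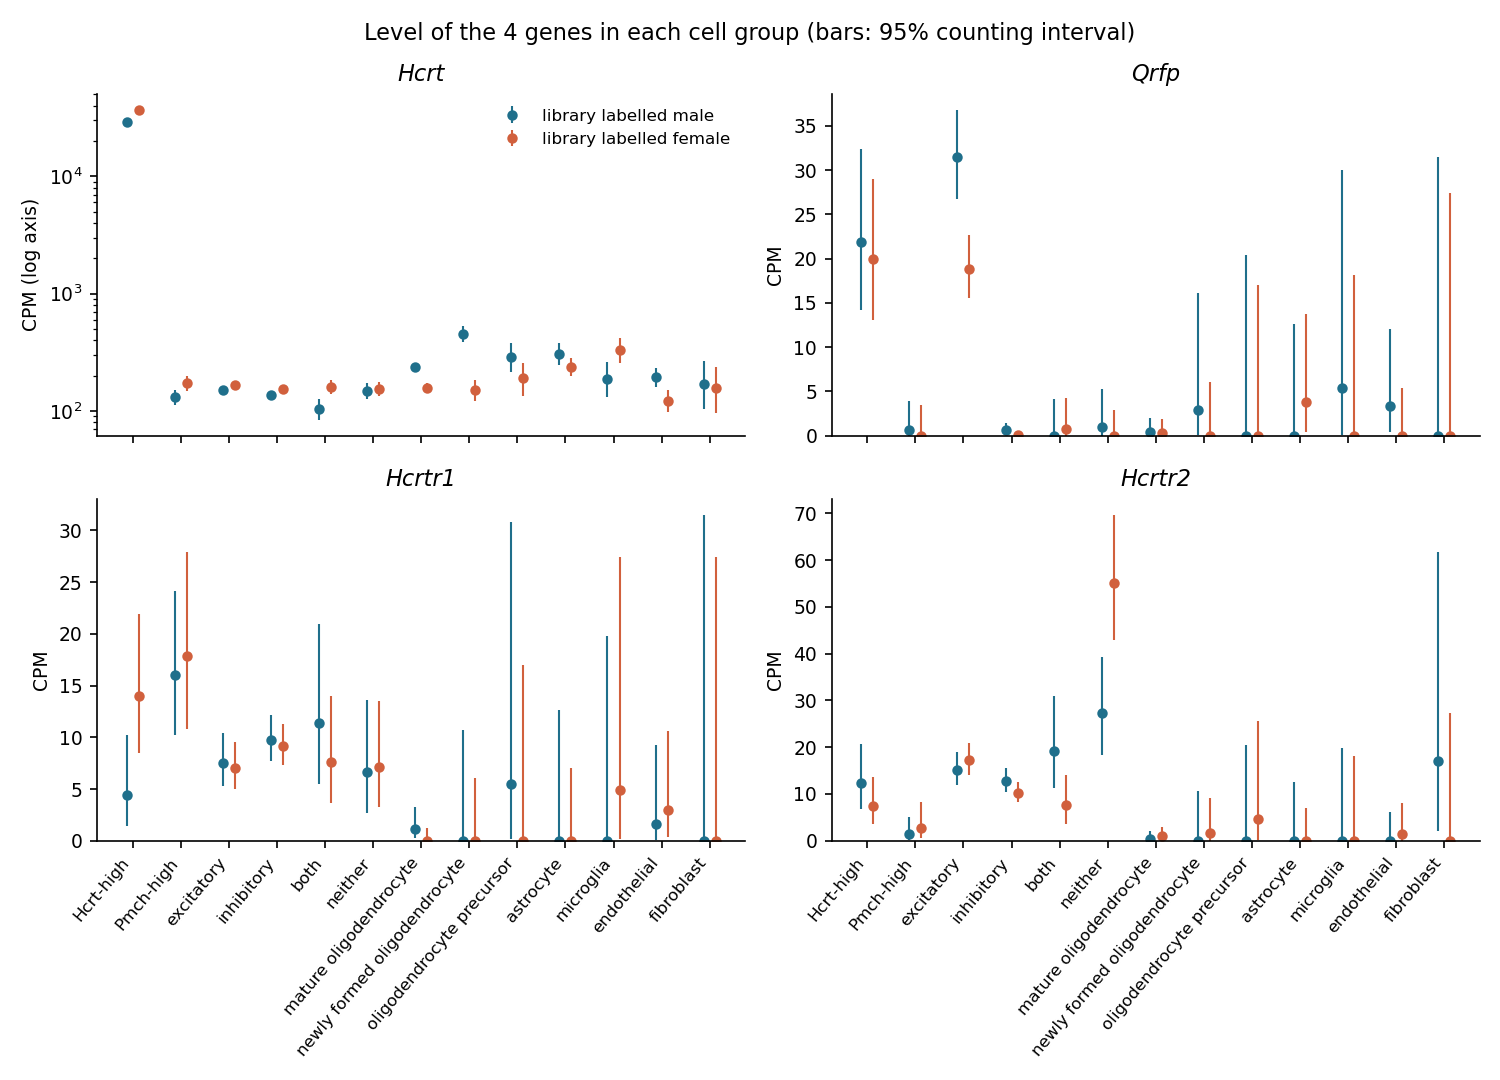
Level of Hcrt (log axis), Qrfp, Hcrtr1 and Hcrtr2 in CPM in each neuron group and each non-neuronal class but mural cells. Points are the libraries labelled male and female and bars are exact 95% counting intervals. Hcrt stands at 29223 and 37207 CPM in Hcrt-high neurons and below 460 elsewhere, and Qrfp is highest in excitatory and Hcrt-high neurons. Both receptors are near 0 in most non-neuronal classes, with wide intervals where few UMIs were counted. Fibroblasts reach 17.1 CPM of Hcrtr2 in the library labelled male, on 2 UMIs.

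Hcrt-high neurons carried the genes known to accompany hypocretin. Against other excitatory neurons, 6 of 7 companion genes passed the test, all higher, by edgeR and by DESeq2, where 40.8% of the 11836 genes tested were called, 21.2% higher and 19.7% lower. Their median log2 fold change was 4.41 against -0.01 over all genes. The list was chosen with earlier results of these data known, so its direction is no independent evidence. Rfx4, a transcription factor gene, stood at 243 and 283 CPM against 5.52 and 3.25. Pdyn, which encodes the dynorphin precursor, stood at 1079 and 1100 CPM against 41.7 and 53.0. Lhx9, a LIM homeodomain factor gene, stood at 218 and 190 against 11 and 9.40, and Nptx2, a neuronal pentraxin gene, at 562 and 537 against 30 and 31.1. In each of these the groups were far apart in both libraries. Nr6a1 did not pass, at 6.14 and 6.64 CPM against 7.36 and 6.32 (log2 fold change 0.17, adjusted p = 0.801, edgeR).

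The machinery that cuts and packs peptides was also higher. Of 10 processing and granule genes, 7 were higher and 0 lower by edgeR, and DESeq2 gave the same counts. Pcsk1, a convertase that cuts precursors at basic pairs, stood at 294 and 314 CPM against 14.5 and 13.8. Scg2, a granin of dense-core vesicles, stood at 9082 and 10075 CPM against 544 and 507. Pam, the enzyme that amidates peptides ending in glycine, stood at 773 and 344 CPM against 158 and 103, so its level differed between the libraries in both groups. Cpe, Scg5 and Chga did not pass, with log2 fold changes of 0.12, -0.25 and 0.17.

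The same lists read differently in Pmch-high neurons, those with 0.3% or more of their UMIs from Pmch (85 and 61 cells). Both comparisons used the same excitatory sums, so their values are only set side by side. Against other excitatory neurons, where 37.7% of 11802 genes were called (19.9% higher and 17.8% lower), 0 of 7 companions were higher and 6 were lower, and 5 of 10 processing genes were higher and 4 lower. DESeq2 called 0 companions higher and 3 lower, and 4 processing genes higher and 3 lower. Pcsk1 had 3.49 and 4.71 CPM in Pmch-high neurons against 294 and 314 in Hcrt-high neurons. Pcsk2, another convertase, had 1331 and 1268 CPM in Pmch-high neurons against 326 and 305 in Hcrt-high neurons. Compared directly, with 34.0% of 9683 genes called, Pcsk1 was higher (log2 fold change 6.19, SE 0.23, adjusted p = 2.74e-150, edgeR) and Pcsk2 lower (-2.06, SE 0.12, adjusted p = 3.66e-64) in Hcrt-high neurons. DESeq2 gave adjusted p = 6.65e-29 and 1.40e-38. Each such fit had 4 sums, the library as a block and 1 residual degree of freedom, so edgeR's very small p-values lean on the spread shared across genes. The spread behind them is that of the group difference between 2 pooled libraries, and not a spread between animals.

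Scaling mattered to these counts. Hcrt-high and Pmch-high neurons were each compared after TMM scaling, which gave 2506 higher and 2328 lower genes for Hcrt-high and 2345 and 2103 for Pmch-high neurons. Scaling by library totals alone shifted the median gene by -0.25 and -0.27 on the log2 scale and gave 1391 higher and 3863 lower, and 1282 and 3849. Small changes of members and list genes are therefore relative to the median gene.

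Qrfp was carried by very few cells. It gave 191 and 142 UMIs, of which 88.5% and 93.7% lay in 7 and 11 cells with 2 or more, and all of these cells were neuron-like. Another 22 and 9 cells held a single UMI. By group, 6 and 6 of the carrying cells were excitatory and 1 and 5 were Hcrt-high. The highest cells held 54 UMIs in the library labelled male and 71 in the library labelled female, and neither was Hcrt-high, with 3 and 0 Hcrt UMIs. Non-neuronal cells held 5 and 3 Qrfp UMIs in all, 1.12 and 0.546 CPM.

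Qrfp and Hcrt overlapped in a minority of carriers. In the library labelled male, the only Hcrt-high carrier held 20 Qrfp and 144 Hcrt UMIs. In the library labelled female, the 5 Hcrt-high carriers held 8, 7, 6, 2 and 2 Qrfp UMIs, and 4 of them had under 1% Hcrt. Another cell, with 8 Qrfp and 38 Hcrt UMIs, stood just below the limit at 0.260%. Counting single UMIs, 6 and 7 of the 83 Hcrt-high neurons had any Qrfp, which were too few for the planned comparison of Hcrt-high neurons with and without it.

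**Figure D3:**
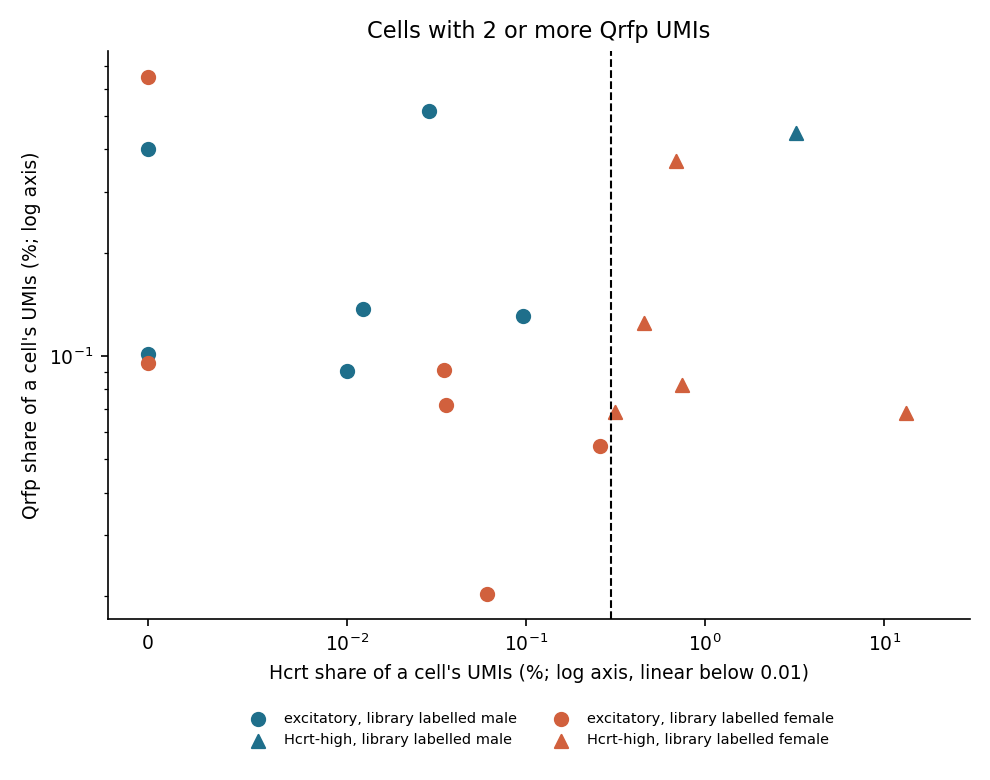
Each point is a cell with 2 or more Qrfp UMIs, with its Hcrt share (log axis, linear below 0.01%) against its Qrfp share (log axis) of the cell's UMIs; circles are excitatory and triangles Hcrt-high neurons, and the dashed line is the 0.3% Hcrt limit. In the library labelled male 1 of 7 cells lies beyond the limit and in the library labelled female 5 of 11, and the cells richest in Qrfp lie on the other side.

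The carriers were also described by genes the selection did not use. All had 0 UMIs of Slc32a1, Npvf and Hcrtr2, and 7 of 7 and 10 of 11 had Slc17a6. Lhx9 was found in 4 and 6 of them, Rfx4 in 5 and 7, and Pdyn in 4 and 7, whereas among all excitatory neurons Lhx9 was found in 3.65% and 4.34%, Rfx4 in 2.82% and 2.32%, and Pdyn in 12.6% and 18.5%. Nptx2 was found in 0 and 1 of them, against 14.8% and 16.5% of excitatory neurons. Hcrtr1 had a UMI in 1 and 3 carriers. Lack of Npvf and Hcrtr2 was usual among excitatory neurons. Npvf was found in 0.831% and 1.01% of them, and Hcrtr2 in 67 of 602 and 82 of 691. The excitatory group leaves out Hcrt-high neurons, which 1 and 5 of the carriers were. Hcrt-high neurons as a group had more Lhx9, Rfx4, Pdyn and Nptx2 than excitatory neurons. Carriers ranged from 2168 to 16116 UMIs in depth, and these shares were not tested.

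By clustering, 5 and 8 of the 7 and 11 carriers sat in the cluster of the Hcrt-high neurons. That cluster also held 11 and 11 excitatory neurons below the Hcrt limit, and these had 108 and 85 Qrfp UMIs. When excitatory neurons were clustered alone, 6 and 5 carriers fell into a subcluster of 14 and 12 cells led by Npvf, Tm4sf4, Slc25a48, Vgll2 and C130060K24Rik, the symbol in these files for the RFamide receptor gene Qrfprl. It had 1070 and 875 CPM of Qrfp. Npvf, another RFamide precursor gene, reached 2 or more UMIs in 3 and 5 of its cells, and 0 cells had that much of both, so the subcluster held Qrfp cells and Npvf cells side by side. Lhx9 had a UMI in 10 and 10 of its cells.

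By group, Qrfp was lower in inhibitory than in excitatory neurons, at 0.633 and 0.106 CPM against 31.5 and 18.8 (log2 fold change -6.08, SE 0.30, adjusted p = 7.56e-18, edgeR). Of all 12998 genes tested there, 13.2% were called and 6.85% were called lower. By UMIs it was likewise called lower in Pmch-high neurons, where 1 and 0 UMIs were counted. The ratio of excitatory to Pmch-high levels was 61.3, with a counting interval of 10.9 to 2431 (adjusted p = 2.04e-12, edgeR). That interval takes UMIs as independent, but 149 and 108 of the excitatory UMIs came from 6 and 6 cells. By cells, 19 of 1293 excitatory and 1 of 146 Pmch-high neurons had any Qrfp, too few to show that the groups differ. With cells thinned to 3000 UMIs the call in Pmch-high neurons was lost (log2 fold change -2.63, adjusted p = 0.136, against -5.65). Hcrt-high neurons had 21.9 and 19.9 CPM, within the range of excitatory neurons (log2 fold change 0.02, SE 0.23, adjusted p = 0.968), and 20 of the 25 UMIs behind the first of these came from 1 cell. In cells thinned to 3000 UMIs it was called higher in Hcrt-high neurons (1.35, adjusted p = 0.0281, edgeR), and 5 other alternatives turned its sign without a call. Against Pmch-high neurons the ratio was 52.0, with a counting interval of 8.93 to 2093 (adjusted p = 6.49e-12, edgeR). This interval, too, takes UMIs as independent. By cells, 13 of 166 Hcrt-high and 1 of 146 Pmch-high neurons had any Qrfp. In order of level, excitatory (25.1 ± 8.96 CPM, SD, n = 2 libraries) and Hcrt-high neurons (20.9 ± 1.42) overlapped, and every other neuron group averaged under 0.5 CPM. In the 6 excitatory gates Qrfp had 0 to 3 UMIs per gate and library, and 1 of the carriers with 2 or more UMIs lay inside a gate, that of Fezf1. It was called lower in all 6, where 3.57% of all gene tests were called lower, but each gate was compared with nearly the same carriers, so the 6 calls repeat 1 observation.

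Both receptor genes were low and nearly all neuronal. Hcrtr1 had 159 and 184 UMIs in neurons, 9.19 and 9.07 CPM, and Hcrtr2 had 237 and 291, or 13.7 and 14.3 CPM. In non-neuronal cells Hcrtr1 had 1.12 and 0.728 CPM and Hcrtr2 0.671 and 1.46. Neurons thus held 97.0% and 97.9% of Hcrtr1 UMIs and 98.8% and 97.3% of Hcrtr2 UMIs. Astrocyte-like cells had 0 UMIs of either receptor in both libraries, at 305 cells in all.

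Few neurons showed both receptors. Hcrtr1 was found in 139 and 159 neurons, Hcrtr2 in 194 and 204, and both in 14 and 18. At this depth, with a UMI of Hcrtr1 in 6.80% and 7% of neurons and of Hcrtr2 in 9.49% and 8.98%, absence of a UMI does not show absence of the receptor. The small overlap therefore does not show that the receptors lie in separate neurons, and it was not tested.

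Pmch-high neurons had the highest Hcrtr1 and the lowest Hcrtr2 of the neuron groups. Hcrtr1 gave 23 and 19 UMIs, 16 and 17.9 CPM, against 7.56 and 7.01 CPM in other excitatory neurons. Both libraries stood above both excitatory values (log2 fold change 1.47, SE 0.32, 2.77-fold, adjusted p = 1.39e-04, edgeR), but DESeq2 gave adjusted p = 0.148. Hcrtr2 gave 2 and 3 UMIs, 1.39 and 2.83 CPM, against 15.1 and 17.3, and was 6.56-fold lower (log2 fold change -2.71, SE 0.49, adjusted p = 4.14e-06, edgeR). DESeq2 kept this call. With cells thinned to 3000 UMIs, Hcrtr2 kept its direction but not its call (log2 fold change -2.45, adjusted p = 0.197), and Hcrtr1 was too sparse to be tested, at 0 and 30.9 CPM.

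The receptors' shares showed the same contrast. UMIs count transcripts from their ends and are not scaled by length, and capture may differ between the genes, so the share is compared only between groups. Hcrtr1 made up 92.0% (exact 95% interval 74.0 to 99) and 86.4% (65.1 to 97.1) of receptor UMIs in Pmch-high neurons. It made up 33.3% (24.7 to 42.9) and 28.9% (21.6 to 37.1) in excitatory neurons and 43.3% (35.9 to 50.9) and 47.0% (39.6 to 54.5) in inhibitory neurons. The intervals of Pmch-high neurons lay above those of both other groups in each library.

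In Hcrt-high neurons the libraries disagreed on Hcrtr1, while Hcrtr2 was the lower value in both. Hcrtr1 gave 5 and 19 UMIs, 4.39 and 14 CPM, below and above the 7.56 and 7.01 CPM of other excitatory neurons. Hcrtr2 gave 14 and 10 UMIs, 12.3 and 7.38 CPM, against 15.1 and 17.3. Neither passed the test against other excitatory neurons (Hcrtr1 log2 fold change 0.64, SE 0.39, adjusted p = 0.190; Hcrtr2 -0.51, SE 0.31, adjusted p = 0.201, edgeR). Hcrtr2 was called lower with the stricter cell filter (-1.62, adjusted p = 0.00478) and with library totals alone (-0.76, adjusted p = 0.0455). Hcrtr1 made up 26.3% (9.15 to 51.2) and 65.5% (45.7 to 82.1) of their receptor UMIs. Against Pmch-high neurons, Hcrtr1 differed by -0.90 (SE 0.39, adjusted p = 0.0602, edgeR), and Hcrtr2, at 14 and 10 UMIs against 2 and 3, did not pass the filter on low counts.

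Inhibitory and excitatory neurons differed little. Hcrtr1 stood at 9.74 and 9.12 CPM in inhibitory and 7.56 and 7.01 in excitatory neurons (log2 fold change 0.37, SE 0.20, adjusted p = 0.264, edgeR). Hcrtr2 stood at 12.8 and 10.3 against 15.1 and 17.3 CPM and was called lower (log2 fold change -0.51, SE 0.16, adjusted p = 0.0288), but 7 of the alternatives run, DESeq2 among them with adjusted p = 1, did not keep this call.

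By mean level, Hcrtr1 ran from Pmch-high (17 ± 1.31 CPM, SD, n = 2 libraries) through neurons with both transporters (9.49 ± 2.66), inhibitory (9.43 ± 0.441), Hcrt-high (9.20 ± 6.81) and excitatory neurons (7.28 ± 0.391) to those with neither transporter (6.85 ± 0.343). Only the first step separated the libraries of neighbouring groups. Hcrtr2 ran from neurons with neither transporter (41.3 ± 19.6) through excitatory (16.2 ± 1.51), both (13.5 ± 8.29), inhibitory (11.5 ± 1.76) and Hcrt-high (9.83 ± 3.47) to Pmch-high neurons (2.11 ± 1.01). Here the first and the last steps separated the libraries and the middle groups overlapped. The first rank rested on 10 cells, described next: without them, a comparison added after the values were seen, neurons with neither transporter had 16.5 and 20.6 CPM of Hcrtr2 (18.5 ± 2.93), which overlapped excitatory neurons.

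The highest Hcrtr2 was found in a subcluster led by Hdc, Prph, Wif1, Maob and Slc18a2. Hdc encodes histidine decarboxylase, the enzyme that makes histamine. The subcluster held only 3 and 7 cells, all with neither transporter. Hcrtr2 was found in every one of these cells, with 3 to 6 and 3 to 10 UMIs each and 13 and 48 in all, and reached 148 and 239 CPM. These cells gave 5.42% and 16.1% of all Hcrtr2 UMIs of their libraries, and 0 and 1 UMIs of Hcrtr1. They were deep, with medians of 29215 and 29306 UMIs, and held 43 to 102 and 30 to 85 Hdc UMIs each. Histamine neurons are a classic target of hypocretin through this receptor. Their number was under the 10 cells per library set for a test.

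Among the 49 subclusters with 10 or more cells in each library, 9 had 20 CPM or more of Hcrtr2 in both libraries and 1 had as much Hcrtr1. This limit was chosen after the values were seen, and these levels are descriptions. Medians over the 49 were 10.8 and 8.37 CPM for Hcrtr2 and 6.49 and 6.23 for Hcrtr1. No UMI in either library was found in 4 subclusters for Hcrtr2 and in 9 for Hcrtr1. By mean of the libraries, Hcrtr2 was highest in a subcluster led by Col27a1, Chrnb4, Neurod6, Calca and Neurod2, which had 0 Hcrtr1 UMIs. It stood there at 48.2 and 88.0 CPM, on 5 and 8 UMIs. A subcluster led by Gm26724 and Nxph1 came next, at 47 ± 23.5 CPM (SD, n = 2 libraries) on 9 and 6 UMIs. An excitatory subcluster led by Neurod2, Col27a1 and Calca had 34.9 and 39.6. Another, led by Otp and Reln, had 48.1 and 23.8. Among inhibitory subclusters, that led by Six6, Six3, Col25a1, Sst and Otp had 29.7 and 23.3 CPM.

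For Hcrtr1, the subcluster above 20 CPM in both libraries was excitatory, with Prokr1 and Trpa1 among its leading genes, and rested on 3 and 3 UMIs (20.7 and 22.7 CPM). Inhibitory subclusters led by Prox1 and Medag (13.6 and 19.9 CPM), by Crh and Gal (13.8 and 17.1) and by Npas1 and Esrrg (13.4 and 16.6) followed with 10 or more UMIs in each library. The inhibitory subcluster led by Nts and Acvr1c, with Cartpt, had both receptors: 21.6 and 15.9 CPM of Hcrtr1 and 24.7 and 21.2 of Hcrtr2.

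**Figure D4:**
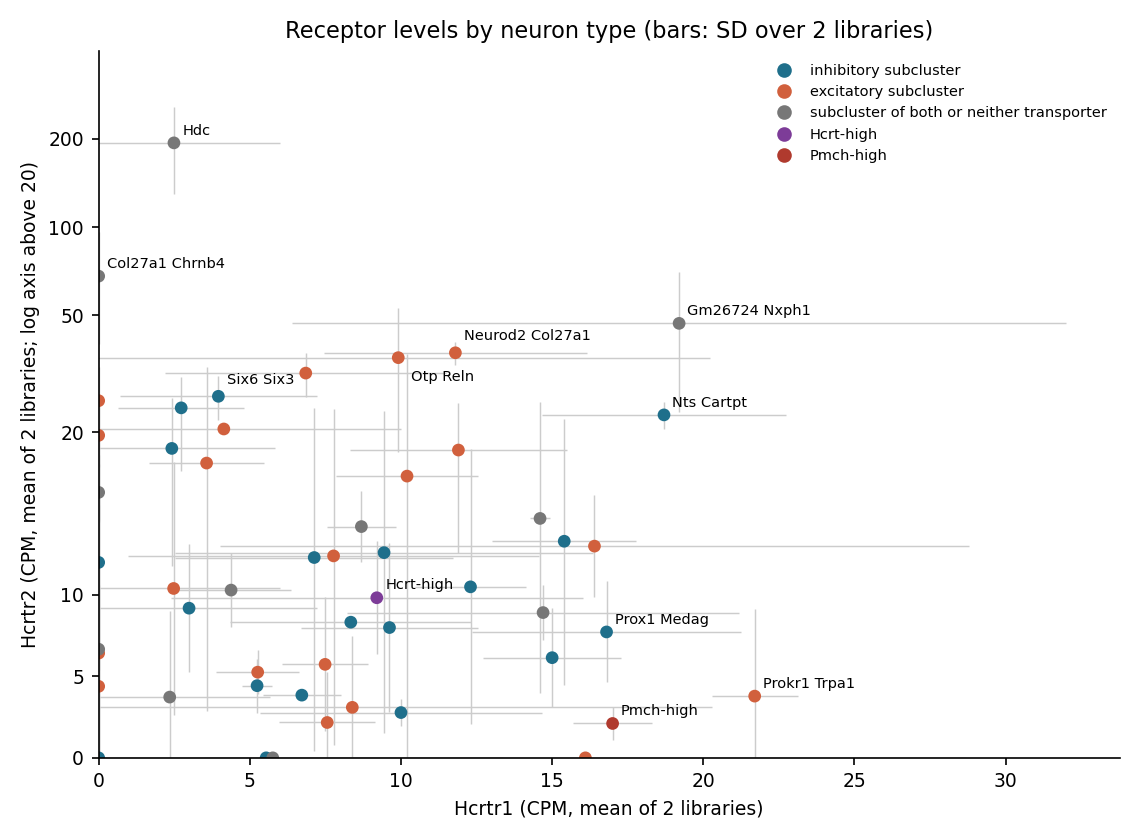
Hcrtr1 against Hcrtr2 (log axis above 20) in CPM, as means of 2 libraries with SD bars cut at 0, for the 49 neuron subclusters with 10 or more cells in each library, the Hdc subcluster, Hcrt-high and Pmch-high neurons; selected points carry leading genes. Hdc cells stand alone at the top, with 148 and 239 CPM of Hcrtr2 in the libraries, and Pmch-high neurons lie at the lower right with 17 CPM of Hcrtr1 and 2.11 of Hcrtr2.

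The receptors were also tested in the neuron gates. Of 17 gates, 16 had 10 or more cells in each library, and the share of all genes called in a gate ran from 1.90% to 19.0% with a median of 4.61%. Hcrtr1 was called in 1 gate and had an unadjusted p under 0.05 in 4 of 16. Hcrtr2 was called in 0 gates by edgeR and 0 by DESeq2, with an unadjusted p under 0.05 in 1, the Tac2 gate (log2 fold change -0.87, unadjusted p = 0.0421). Across gates the estimates for Hcrtr2 ran from -0.96 to 0.88.

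The gate called for Hcrtr1 was inhibitory and held Gal with Pgr15l. It gave 14 and 6 UMIs, 34.2 and 14.3 CPM, against 8.41 and 8.88 in other inhibitory neurons (log2 fold change 1.48, SE 0.44, adjusted p = 0.0336, edgeR; 3.34% of genes called in this gate). The library labelled male alone gave 2.07 and the library labelled female alone 0.80. With a stricter gate the estimate fell to 0.17 (adjusted p = 0.993), and DESeq2 did not call it (adjusted p = 1). The gate of Cartpt and Nts had 20.9 and 15.9 CPM of Hcrtr1 (1.09, adjusted p = 0.146) and 20.9 and 18.1 of Hcrtr2 (0.88, adjusted p = 0.233). In the gate of nuclear factor I genes Hcrtr1 had 0 UMIs in both libraries, at least 1.52-fold lower than in other inhibitory neurons with 3 UMIs over the gate as the floor, and was not called. Among excitatory gates, that of Ebf3 had 11.6 and 12.7 CPM of Hcrtr1 against 6.48 and 5.91 (0.98, adjusted p = 0.126).

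**Figure D5:**
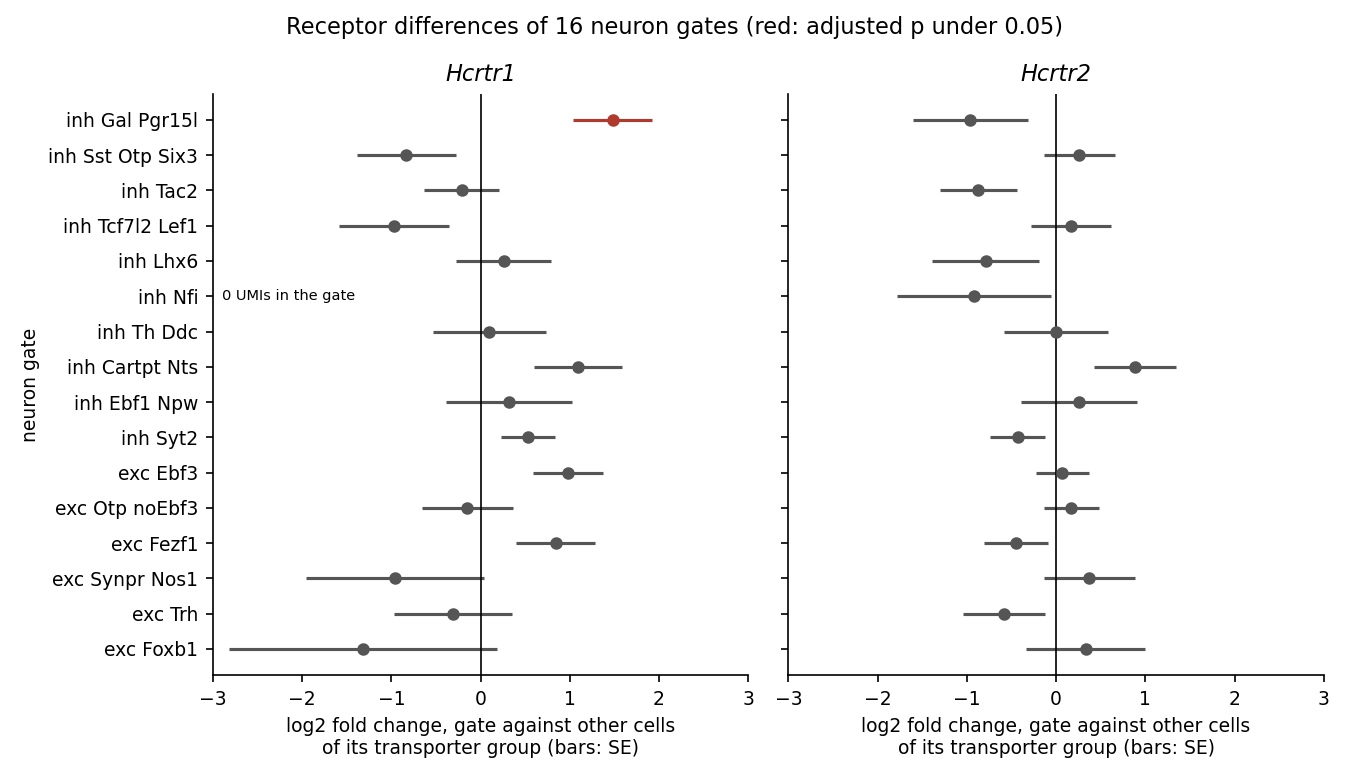
Log2 fold change of Hcrtr1 and Hcrtr2 in each of 16 neuron gates against the other cells of the same transporter group; points are edgeR estimates from 2 libraries, bars are SE, and red marks an adjusted p under 0.05. The Gal and Pgr15l gate is called for Hcrtr1 at 1.48, and no gate is called for Hcrtr2.

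Of 13 genes that act downstream of Gq-coupled receptors, 10 passed the filter on low counts in Hcrt-high against other excitatory neurons. Of these, 1 was higher, 5 were lower and 4 did not pass the test, where 19.7% of all genes were called lower (median log2 fold change -0.38 against -0.01 over all genes), and DESeq2 called 4 lower and 0 higher. Trpc5, a cation channel gene, had 0 and 1.48 CPM against 29.0 and 34.7 (log2 fold change -5.02, adjusted p = 6.49e-15, edgeR). Plcb1, a phospholipase C gene, had 5.26 and 4.43 CPM against 42.9 and 51.6. The 1 higher gene, named after its values were seen, was Itpr1, which encodes an inositol trisphosphate receptor, at 47.4 and 64.9 against 43.9 and 43.2 CPM. In Pmch-high neurons the counts were also 1 higher and 5 lower, where 19.9% of all genes were called higher and 17.8% lower. DESeq2 called 0 higher and 4 lower there. The lower genes were led by Rgs4, a regulator of G-protein signalling, at 25.8 and 21.7 CPM against 129 and 124.

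Of 10 other RFamide peptide and receptor genes, 4 passed the filter in Hcrt-high against excitatory neurons. Of these, 0 were higher and 2 lower by edgeR, where 21.2% of all genes were called higher and 19.7% lower. DESeq2 called 0. Qrfpr, the receptor for QRFP, had 0 UMIs in Hcrt-high neurons of both libraries and 57 in other excitatory neurons, 7.36 and 3.59 CPM. Npffr1, a receptor for RFamide peptides, had 1.75 and 2.21 CPM against 11 and 17.6 (log2 fold change -2.59, adjusted p = 8.14e-06, edgeR). Npvf had 26.3 and 0.738 CPM against 5.72 and 38.8, in opposite directions in the libraries.

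Over 58 separate groups (Hcrt-high, Pmch-high, neuron subclusters and non-neuronal classes), the genes most like each member were named by the Pearson correlation of log2(CPM + 1) within each library, among 15925 genes. For Hcrt these were Gm14137 (0.90 and 0.85), Gm867 (0.68 and 0.78) and RP24-134N2.1 (0.65 and 0.78). For Qrfp they were Slc25a48 (0.84 and 0.85), Tm4sf4 (0.77 and 0.87) and Tmem8c (0.84 and 0.71). For Hcrtr1 the highest was Htr2c, a serotonin receptor gene (0.58 and 0.55), and for Hcrtr2 it was Erc2, a gene of the presynaptic active zone (0.54 and 0.50). Between libraries the members themselves correlated at 0.92, 0.81, 0.59 and 0.60 in the order Hcrt, Qrfp, Hcrtr1 and Hcrtr2. Groups of 1 library share its depth and background, the genes were picked as the highest of 15925, and these values are descriptions. By mean of the libraries, Hcrt had 33215 CPM in Hcrt-high neurons and at most 633 in any other group. Qrfp had 973 CPM in the subcluster with most Qrfp cells and 20.9 in Hcrt-high neurons. Correlations with Hcrt and Qrfp therefore lean on few groups.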

How the data were processed

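The deposited matrices hold UMI counts per gene and barcode for 2 libraries. Per the submitters' processing notes they were made with Cell Ranger 2.2.0 on mm10 (GRCm38). Which annotation release was used, and whether counting used strand, is not given in the sources used here. Raw counts totalled 23151801 and 27437142 UMIs. Barcodes with under 500 genes or over 20% mitochondrial UMIs were removed (163 and 163), then the highest Scrublet scores at a rate of 0.8% per 1000 barcodes (86 and 105, against 48 and 12 calls by Scrublet's own limit). Cells were clustered with scanpy 1.11.5 (2000 variable genes without the 4 members, 30 components, 15 neighbours, Leiden resolution 1). Clusters were named from marker lists, and the rules for leaving a cluster unnamed were adjusted after the clusters were seen. Every named class had at least 8 of its markers in 25% or more of its cells.

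UMI counts were summed per library and group, at least 10 cells a sum, and compared with edgeR 4.0.16 (quasi-likelihood, TMM, filterByExpr, library as a block, Benjamini-Hochberg over all genes tested, called at adjusted p under 0.05). DESeq2 1.42.0 was an alternative. Both arms of a comparison come from the same libraries, so the library pairs the sums. Per-library fold changes added 0.5 UMIs to each count. The fits were tested on simulated data. The floor for a count of 0 was 3 counts. The comparison of Hcrt-high neurons with and without Qrfp and the inhibitory Lepr gate had under 10 cells a sum and were not run.

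The 4 genes and all lists were chosen with earlier results of these data known. The text names the members. Hcrt was only described for Hcrt-high and Pmch-high neurons, and its main tests elsewhere covered only neurons below both limits. Named as well are up to 4 called genes per list by size of fold and up to 5 leading genes per subcluster. For each member the 3 genes most like it are named, or fewer where only the highest is given. Sequences come from GENCODE M21 and RefSeq GRCm38.p6, where 4 of 4 members matched a promoter.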

Additional observations from a re-analysis of the deposited data

Results flagged for a closer look

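The differences of 2 members between Hcrt-high and other excitatory neurons pointed in opposite directions in the libraries, which is why they are listed here. For Qrfp the log2 fold change was -0.50 in the library labelled male and 0.10 in the library labelled female. For Hcrtr1 it was -0.67 in the library labelled male, on 5 UMIs in Hcrt-high neurons, and 1.02 in the library labelled female, on 19. With 1 library per label, neither difference between the libraries was tested.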

How the results depend on the processing

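Counts of genes called moved most. For inhibitory against excitatory neurons, 1713 genes became 1023 with the stricter cell filter, 724 with cells thinned to 3000 UMIs, 277 by DESeq2, 363 with no replicate block and 2998 with Hcrt-high and Pmch-high neurons kept in. For Hcrt-high neurons 4834 became 1569 thinned and 1530 by DESeq2, for Pmch-high neurons 4448 became 981 and 1378, and for Hcrt-high against Pmch-high neurons 3297 became 677 and 765. Hcrt in inhibitory neurons was called lower with the limit at 1% (-1.47) and with Hcrt-high neurons kept in (-4.82), where excitatory neurons contain Hcrt cells. Hcrt in the gate of Synpr and Nos1 turned to 0.19 at 1%, and lost its call thinned, by DESeq2 and with no replicate block (-0.79, adjusted p = 0.0624). At 1% the library labelled male had 61 Hcrt-high neurons.

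Hcrtr2 in inhibitory against excitatory neurons lost its call with the stricter filter (-0.52, adjusted p = 0.16), thinned (-0.45, 0.373), at the 0.1% limit (-0.52, 0.0505), with no filter on low counts (-0.49, 0.0892), by DESeq2 (-0.49, 1), with no replicate block (-0.50, 0.287) and with the high groups kept in (-0.31, 0.178). Qrfp in Hcrt-high neurons, not called, changed sign with the stricter filter (-0.39), the 1% limit (-0.52), no filter on low counts (-0.04), library totals alone (-0.24) and no replicate block (-0.01), and was called thinned (1.35, 0.0281). Hcrtr2 there was called with the stricter filter (-1.62) and library totals alone (-0.76). In Pmch-high neurons, thinning ended the calls of Qrfp (-2.63, 0.136) and Hcrtr2 (-2.45, 0.197), and DESeq2 that of Hcrtr1 (1.47, 0.148). Gates called for Hcrtr1 went from 1 to 0 with the stricter filter, thinning, DESeq2, no replicate block and stricter gates, and to 2 with looser gates. Thinning leaves fewer UMIs and also fewer cells, with 73 and 73 Hcrt-high neurons against 83 and 83 before it. The causes of these changes, those with thinning included, were not tested.

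A single library has no test. Its log2 fold changes ran, for inhibitory against excitatory neurons, from -6.89 to -5.50 for Qrfp and from -0.75 to -0.25 for Hcrtr2. For Hcrt-high neurons they ran from -0.50 to 0.10 for Qrfp, from -0.67 to 1.02 for Hcrtr1 and from -1.16 to -0.26 for Hcrtr2. For Pmch-high neurons they ran from -5.33 to -4.92, from 1.10 to 1.37 and from -3.13 to -2.40. For Hcrt-high against Pmch-high neurons they ran from 4.42 to 5.43 for Qrfp and from -1.76 to -0.35 for Hcrtr1. Of 120 levels recomputed in thinned cells, 89 stayed inside their counting interval. Depth limits the receptors: the 159 and 184 Hcrtr1 UMIs of neurons came from 139 and 159 cells.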

Other observations

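Hcrt-high neurons with less and with more Hcrt both carried Lhx9, Pdyn, Rfx4 and Nptx2. Cells between 0.3% and 2% Hcrt (51 and 34) were set beside cells at 2% and above (32 and 49), with CPM computed without Hcrt UMIs and no test. Lhx9 stood at 225 and 201 CPM in the lower cells and at 226 and 195 in the higher ones. Pdyn was lower in the cells with more Hcrt in both libraries, at 928 and 1114 CPM against 1199 and 1180. Rfx4 stood at 255 and 270 CPM in the lower and 240 and 313 in the higher cells. Nptx2 was higher in the cells with more Hcrt in both libraries, at 728 and 619 against 508 and 478 CPM, as was Slc17a6, at 298 and 295 against 239 and 190. The share of mitochondrial UMIs was also higher in them, with medians of 9.18% and 11% against 7.66% and 7.67%, and its part in these values was not tested. Qrfp had 1 and 23 UMIs in the lower and 24 and 4 in the higher cells, in opposite directions. Both receptors were higher in the cells with more Hcrt in both libraries, on few UMIs. Hcrtr1 stood at 5.58 and 20.3 CPM against 4.01 and 7.05, and Hcrtr2 at 22.3 and 12.2 against 8.02 and 1.76.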
